A study of Mus musculus with 2 samples.

Results

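The heat shock proteins and cytosolic chaperones were examined as a list of 44 genes, which covers the heat shock factors, the HSP70, HSP110, HSP90 and small heat shock families, J proteins, BAG proteins, co-chaperones and the chaperonins. A gene was measured when at least 1 probe set of the array named it and no other gene, and its value was taken from the probe set whose log2 signal was highest on average over both arrays. Under this rule 41 of the 44 genes were measured, among 18193 named genes on the array. Hsf1 and Hsp90ab1 were not analysed here, and the 2 probe sets of Ptges3, an HSP90 co-chaperone, also named its pseudogene and were left out. RNA came from primary mouse embryonic fibroblasts (MEFs) of C57BL/6 embryos, taken at embryonic day 13.5 and used young, at passage 2. The cells had received either GapmeR AK156230, a locked nucleic acid oligonucleotide that directs RNase H to the lncRNA AK156230, or GapmeR Control, a scrambled oligonucleotide without a target. Each condition had 1 array and AK156230 was targeted by a single GapmeR, so no test was run, no difference has a replicate check, and loss of the lncRNA cannot be told apart from other effects of that oligonucleotide.

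Heat shock proteins are molecular chaperones that bind unfolded proteins and help them to fold, stay soluble or be degraded. HSP70 works in cycles that J proteins start and HSP110 and BAG proteins end by exchanging its nucleotide, HSP90 finishes the folding of kinases and steroid receptors with the help of co-chaperones, and the ring-shaped chaperonin TRiC folds actin and tubulin. When unfolded proteins accumulate, the transcription factor HSF1 binds heat shock elements in the promoters of many of these genes and induces them together, with HSF2 as a partner.

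The median signal was 50.95 on the GapmeR AK156230 array and 54.80 on the GapmeR Control array, and the log2 signals of all probe sets had a Pearson correlation of 0.970 between the arrays, which is a description across probe sets. The annotation placed 0 probe sets in AK156230, and the knockdown could therefore not be checked on the arrays. All 15 markers of fibroblasts had a signal at or above the array's median, with GapmeR AK156230 6 of them were at least 2-fold lower and 0 were at least 2-fold higher, and their summed signal was 31907 with GapmeR AK156230 and 46246 with GapmeR Control. Of 10 markers of macrophages and leukocytes 2 (Cd68 and Cd14) were at least 2-fold higher and 0 at least 2-fold lower, at a median log2 ratio of -0.28 and a summed signal of 2478.5 with GapmeR AK156230 and 2734.3 with GapmeR Control. Of 8 epithelial markers 2 (Dsp and Krt18) were at least 2-fold higher and 1 (Cldn1) at least 2-fold lower, at a median of 0.03 and a sum of 920.5 with GapmeR AK156230 and 553.2 with GapmeR Control. Of 6 endothelial markers 1 (Kdr) was at least 2-fold higher and 0 at least 2-fold lower, at a median of -0.10 and a sum of 194.8 with GapmeR AK156230 and 150.9 with GapmeR Control. In these bulk cultures fewer cells of a type and less RNA per cell cannot be told apart. For genes with several probe sets at or above the median signal, the SD of the log2 ratio between the 2 brightest was 0.28 for a probe set, which measures the spread between probe sets of an array and not between cultures.

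The promoters were searched for exact matches to the heat shock element, the binding sequence of HSF1. RefSeq promoter windows of GRCm38.p6, from 250 bases before to 50 bases after an annotated start, were in hand for 34 of the 41 measured genes. A heat shock element is built of alternating blocks, here searched on both strands as GAANNTTCNNGAA or TTCNNGAANNTTC for a 3-unit element and as GAANNTTC or TTCNNGAA for the 2-unit core, which lies within every 3-unit match. A 3-unit element was in the windows of 5 of the 34 genes (Chordc1, Dnajb6, Hspd1, Hspe1 and Hsph1), against 0.662% of the 27025 genes with a window, and a 2-unit core in 16 of the 34, against 17.0% of those genes. The following stretches are shown because they hold these elements, in capitals, and because they include the gene with the largest difference, Zfand2a. The capitals in the Zfand2a stretch are a 2-unit core and the palindrome TGACGTCA (the cAMP response element bound by CREB and ATF proteins, searched after this stretch had been seen), those of the other stretches are 3-unit elements or, in Hspa1a and Hspa1b, the 2-unit core.
Zfand2a, chr5:139484492-139484741, minus strand: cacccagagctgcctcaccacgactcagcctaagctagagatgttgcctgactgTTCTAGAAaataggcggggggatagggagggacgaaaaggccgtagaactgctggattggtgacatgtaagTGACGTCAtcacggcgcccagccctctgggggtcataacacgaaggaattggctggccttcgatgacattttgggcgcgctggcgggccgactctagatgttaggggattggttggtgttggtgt
Hspe1, chr1:55088038-55088097, plus strand: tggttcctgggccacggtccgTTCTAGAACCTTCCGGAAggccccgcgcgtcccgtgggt
Dnajb6, chr5:29735833-29735892, plus strand: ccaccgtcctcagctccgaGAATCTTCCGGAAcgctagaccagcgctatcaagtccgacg
Chordc1, chr9:18292260-18292289, plus strand: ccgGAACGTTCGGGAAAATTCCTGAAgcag
Hsph1, chr5:149636287-149636308, minus strand: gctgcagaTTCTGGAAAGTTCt
Hspa1a, chr17:34972187-34972286, minus strand: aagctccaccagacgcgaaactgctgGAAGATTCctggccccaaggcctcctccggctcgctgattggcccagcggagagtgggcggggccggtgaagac
Hspa1b, chr17:34959269-34959368, minus strand: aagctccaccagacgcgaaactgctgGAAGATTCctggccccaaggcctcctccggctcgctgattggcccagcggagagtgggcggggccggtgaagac

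The Hspe1 element starts 89 bases before its annotated start, and the same bases lie in the window of Hspd1, which is transcribed the other way. The elements of Chordc1 overlap each other and run across its start, while that of Hsph1 follows its annotated starts. The stretches of Hspa1a and Hspa1b are identical, and their whole windows differed at 4 of 300 bases. The palindrome TGACGTCA was in 2.03% of all genes with a window and in 2 of the 34 genes, Zfand2a and Trap1.

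Most heat shock and chaperone genes, 33 of 41 or 80.5%, were within 1.5-fold between the arrays, as were 84.8% of all named genes. With GapmeR AK156230, 1 of the 41 genes, Zfand2a, was higher and 1, Cct8, was lower by 2-fold or more, against a background of 1.59% higher and 3.85% lower among all named genes, and of 1.9% higher and 4.92% lower among the 12319 named genes at or above the median signal. At 1.5-fold the counts were 4 higher and 4 lower, each 9.76% of the genes, against 5.48% higher and 9.69% lower among all named genes and 6.19% higher and 10.7% lower among those at or above the median signal. Of the 112 probe sets of these genes, 5 were at least 2-fold higher (4 of Zfand2a and 1 of Cryab) and 2 at least 2-fold lower (1 each of Cct8 and Hspa12a), where 1.48% and 3.68% of all probe sets with 1 gene symbol were. With counts this small, no share is read as a property of the list. The median log2 ratio (GapmeR AK156230 to GapmeR Control) was 0.04, and the middle of the distribution ran from -0.12 to 0.18 (lower and upper quartile), against a median of -0.07 and quartiles of -0.31 and 0.16 over all named genes. A log2 ratio within 0.28 of 0, the spread between probe sets, was found for 27 of the 41 genes, or 65.9%, and for 55.3% of all named genes. All but 1 of the genes, Hspa12a, had a signal at or above the median on the brighter array. Scaling both arrays to the same median adds 0.1051 to every log2 ratio, so values less than this below 0 turn positive.

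**Figure D1:**
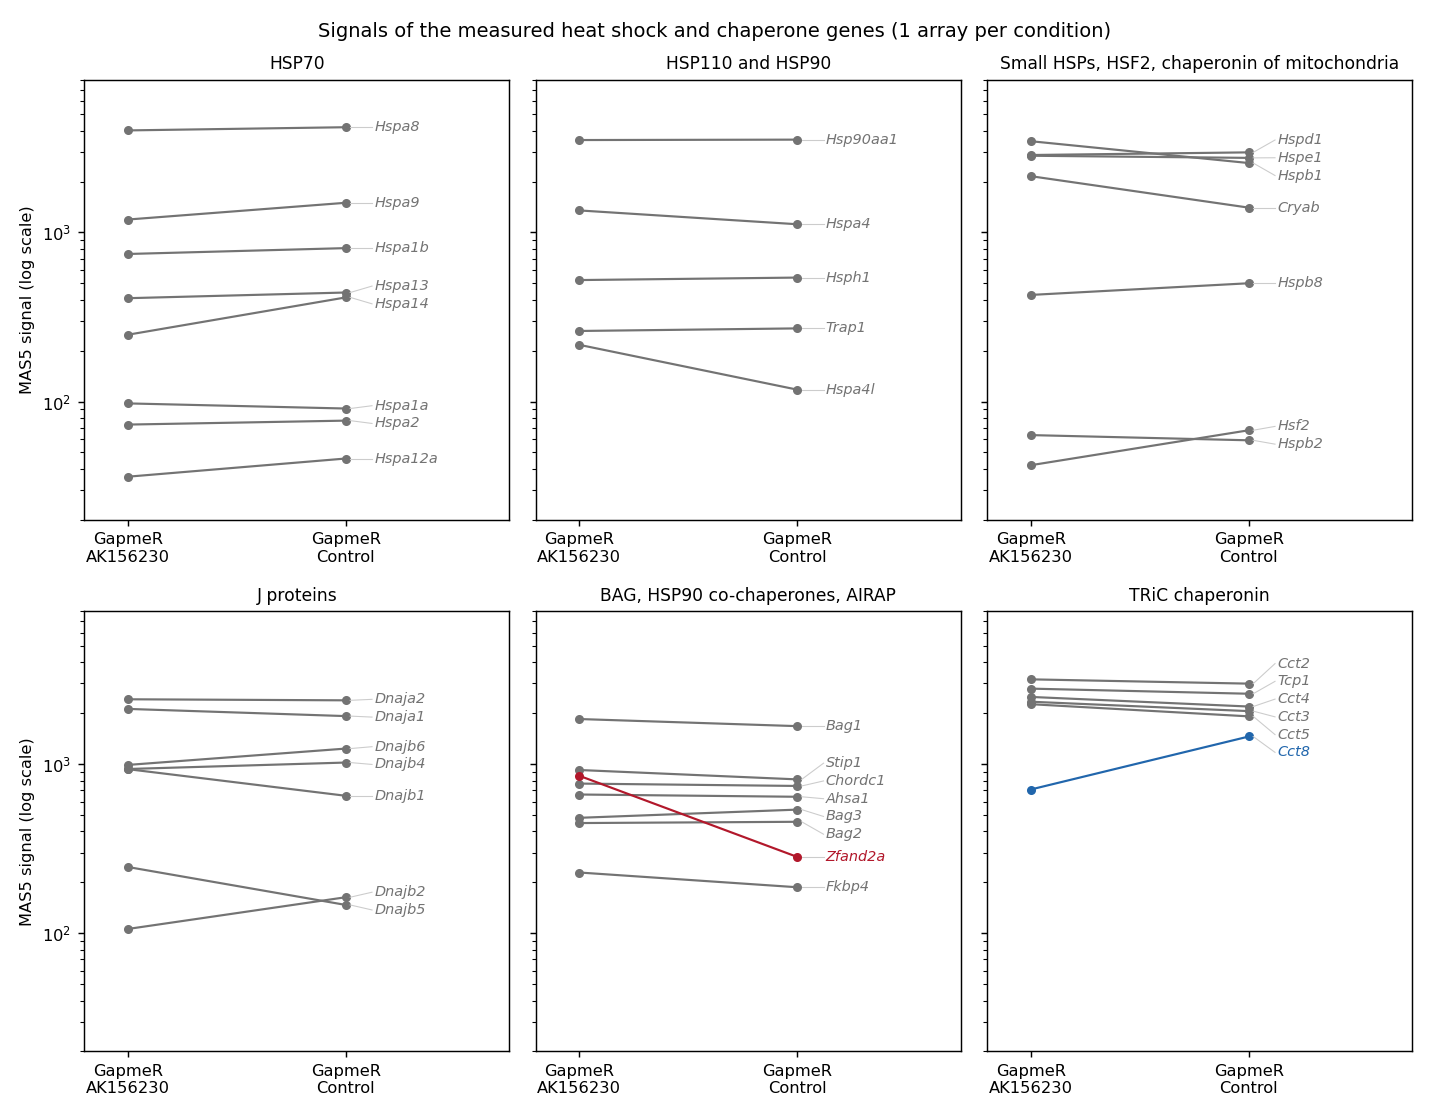
MAS5 signal on a log scale with GapmeR AK156230 (left) and GapmeR Control (right) for the 41 measured genes, 1 array per condition, each gene drawn as a line between its points, to be read within a gene and not between genes. Zfand2a (red, 853.72 with GapmeR AK156230 and 282.52 with GapmeR Control) and Cct8 (blue, 707.85 with GapmeR AK156230 and 1457.09 with GapmeR Control) are past 2-fold, and most other lines are close to level.

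Zfand2a, which encodes the arsenite-inducible protein AIRAP that associates with the proteasome, had the largest difference among these genes. It lies on chromosome 5 from 139471216 to 139484491 and spans 13.3 kb. Its signal was 853.72 with GapmeR AK156230 and 282.52 with GapmeR Control, 3.02-fold higher, which placed it 78th from the top among the 18193 named genes. The other probe sets of Zfand2a gave 369.39 with GapmeR AK156230 against 106.4 with GapmeR Control, 527.32 against 182.35, and 96.49 against 39.98. These are differences of 3.47-, 2.89- and 2.41-fold, so each of its 4 probe sets was higher by 2-fold or more. Over the alternatives the log2 ratio stayed between 1.52 and 1.70.

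The factors that induce heat shock genes could be read only in part. Hsf2 had signals of 42.00 with GapmeR AK156230 and 67.63 with GapmeR Control, 1.61-fold lower. This was close to the median signal of the arrays, the other probe set of Hsf2 had 26.5 with GapmeR AK156230 and 26.16 with GapmeR Control, and the mean of both gave a log2 ratio of -0.33.

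The stress-inducible HSP70 and HSP90 genes, which are among those that rise in a classical heat shock response, differed little. Hspa1a and Hspa1b encode nearly the same protein, the inducible HSP70, and probe sets may not separate their transcripts. Hspa1a had 97.47 with GapmeR AK156230 and 90.9 with GapmeR Control. Hspa1b had 745.66 with GapmeR AK156230 and 807.68 with GapmeR Control, and its further probe sets had log2 ratios of 0.07 and -0.03. Hsp90aa1, the inducible form of HSP90, had 3519.01 with GapmeR AK156230 and 3538.34 with GapmeR Control. Hsph1, an inducible HSP110 that serves HSP70 as nucleotide exchange factor, had 522.79 with GapmeR AK156230 and 540.78 with GapmeR Control. Thus none of the 4 genes was past 1.5-fold at the probe set used.

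Among the other HSP70 genes the log2 ratios ran from -0.73 to -0.06. Hspa8, the constitutive HSC70, had 4012.05 with GapmeR AK156230 and 4190.15 with GapmeR Control, although one of its further probe sets was 1.65-fold higher (140.37 with GapmeR AK156230 and 85.18 with GapmeR Control). Hspa9, the HSP70 of mitochondria, had 1191.89 with GapmeR AK156230 and 1497.65 with GapmeR Control, 1.26-fold lower, and all 4 of its further probe sets were also below 0, at log2 ratios from -0.52 to -0.15. Hspa14, a ribosome-associated HSP70, had 248.23 with GapmeR AK156230 and 412.87 with GapmeR Control, 1.66-fold lower. A second probe set of Hspa14 was 1.89-fold lower (209.72 with GapmeR AK156230 and 395.92 with GapmeR Control), whereas another gave 115.15 with GapmeR AK156230 and 108.31 with GapmeR Control. The log2 ratios of Hspa2, the HSP70 of spermatogenic cells, and Hspa13, which is found in microsomes, were -0.08 and -0.11. Hspa12a, a distant HSP70 relative, was below the median signal on both arrays, with 35.92 with GapmeR AK156230 and 46.02 with GapmeR Control. Another probe set of Hspa12a, which passed the median signal on the GapmeR Control array, was 2.66-fold lower (22.06 with GapmeR AK156230 and 58.64 with GapmeR Control).

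Of the HSP110 genes, Hspa4l (APG-1) stood out from its relatives. Its signal was 216.46 with GapmeR AK156230 and 117.52 with GapmeR Control, 1.84-fold higher. The other 4 probe sets of Hspa4l were higher as well, by 1.79-, 1.70-, 1.64- and 1.49-fold, so that all 5 were higher and within 2-fold. Those at 1.64-fold (61.91 with GapmeR AK156230 and 37.67 with GapmeR Control) and 1.49-fold (58.83 with GapmeR AK156230 and 39.47 with GapmeR Control) were near the median signal. With GapmeR Control they were below it. Hspa4 (APG-2), the closest relative of Hspa4l, had 1349.46 with GapmeR AK156230 and 1117.9 with GapmeR Control, 1.21-fold higher, and its further probe sets had log2 ratios from -0.11 to 0.07. Hspa4l spans 51.6 kb on chromosome 3 from 40744500 to 40796103. Trap1, the HSP90 of mitochondria, had 261.36 with GapmeR AK156230 and 270.7 with GapmeR Control.

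Small heat shock proteins hold unfolded proteins in solution without using ATP, and 3 of the 4 measured on the list had log2 ratios above 0, where 41.2% of all named genes did. Of 5 further genes outside the list, grouped here with the small heat shock proteins, 1 was above 0, the dim Hspb3. Their median log2 ratio was -0.34, the value of Hspb11, which was counted by its name. Cryaa (37.76 with GapmeR AK156230 and 61.33 with GapmeR Control) and Hspb7 (45.23 with GapmeR AK156230 and 68.06 with GapmeR Control) were lower by 1.62- and 1.5-fold. Both were close to the median signal, so little is read from this group. Cryab, which encodes alpha-B-crystallin, had 2151.79 with GapmeR AK156230 and 1401.42 with GapmeR Control, 1.54-fold higher, and its second bright probe set was 2.03-fold higher (1159.89 with GapmeR AK156230 and 571 with GapmeR Control). One more, dim probe set of Cryab had 44.87 with GapmeR AK156230 and 49.22 with GapmeR Control. Hspb1 (HSP25 in mouse) had 3463.84 with GapmeR AK156230 and 2572.49 with GapmeR Control, 1.35-fold higher, with 1.40-fold at its other probe set. Hspb2, a neighbour of Cryab in the genome, was close to the median signal (63.31 with GapmeR AK156230 and 58.97 with GapmeR Control), and Hspb8, which works with BAG3 in selective autophagy, had 426.95 with GapmeR AK156230 and 500.59 with GapmeR Control. Over the alternatives the median log2 ratio of the 4 genes on the list was between 0.25 and 0.37.

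Cryab and Hspb2 are abundant in striated muscle, and the markers of muscle went in both directions. Of 15 such markers 4 were at least 2-fold higher and 0 at least 2-fold lower, 11 had a log2 ratio above 0 and 4 below, and 7 had a signal at or above the median, with a sum of 2155.4 with GapmeR AK156230 and 1339.0 with GapmeR Control. Chrna1 (418.27 with GapmeR AK156230 and 39.66 with GapmeR Control) and Tnnt2 (250.21 with GapmeR AK156230 and 59.74 with GapmeR Control) were the bright ones among the 4. The others were dim, the regulator Myf5 (11.02 with GapmeR AK156230 and 5.33 with GapmeR Control) and Myh6 (10.97 with GapmeR AK156230 and 4.67 with GapmeR Control). Acta1, the brightest of the 15 markers, was 1.85-fold higher (770.32 with GapmeR AK156230 and 416.88 with GapmeR Control). No marker had a signal of 0 on either array. The defining regulator Myod1, close to the median signal, was 1.69-fold lower (35.33 with GapmeR AK156230 and 59.81 with GapmeR Control). Des, Chrnd and the dim Myh3 were lower as well, by 1.22-, 1.34- and 1.51-fold. The defining genes Myog (29.53 with GapmeR AK156230 and 25.91 with GapmeR Control) and Ckm (24.74 with GapmeR AK156230 and 23.72 with GapmeR Control) were below the arrays' medians. Their part in the values of Cryab was not tested.

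J proteins deliver substrates to HSP70 and speed its ATP hydrolysis, and the 7 measured went in both directions. Dnajb1 (HSP40), the stress-inducible partner of the inducible HSP70, had 934.27 with GapmeR AK156230 and 649.78 with GapmeR Control, 1.44-fold higher, with 1.59-fold at a second probe set. Dnajb5 was 1.68-fold higher at its brightest probe set (246.52 with GapmeR AK156230 and 146.96 with GapmeR Control), but the others had log2 ratios of -0.14 and 0.01, so the difference rests on a single probe set. Dnajb2, a J protein abundant in neurons, was represented by 1 probe set and was 1.54-fold lower (105.94 with GapmeR AK156230 and 163.29 with GapmeR Control). The log2 ratio of Dnajb6, which suppresses aggregation of polyglutamine proteins, was -0.32 at its brightest probe set and 0.36 at the second brightest, and therefore had no settled sign. Dnaja1, Dnaja2 and Dnajb4 had log2 ratios of 0.14, 0.02 and -0.13 at their brightest probe sets. Further probe sets went from -0.09 to 0.07 in Dnaja1, from -0.76 (172.21 with GapmeR AK156230 and 292.45 with GapmeR Control) to 0.25 in Dnaja2, and from -0.35 to 0.20 in Dnajb4, so these genes had no settled sign.

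**Figure D2:**
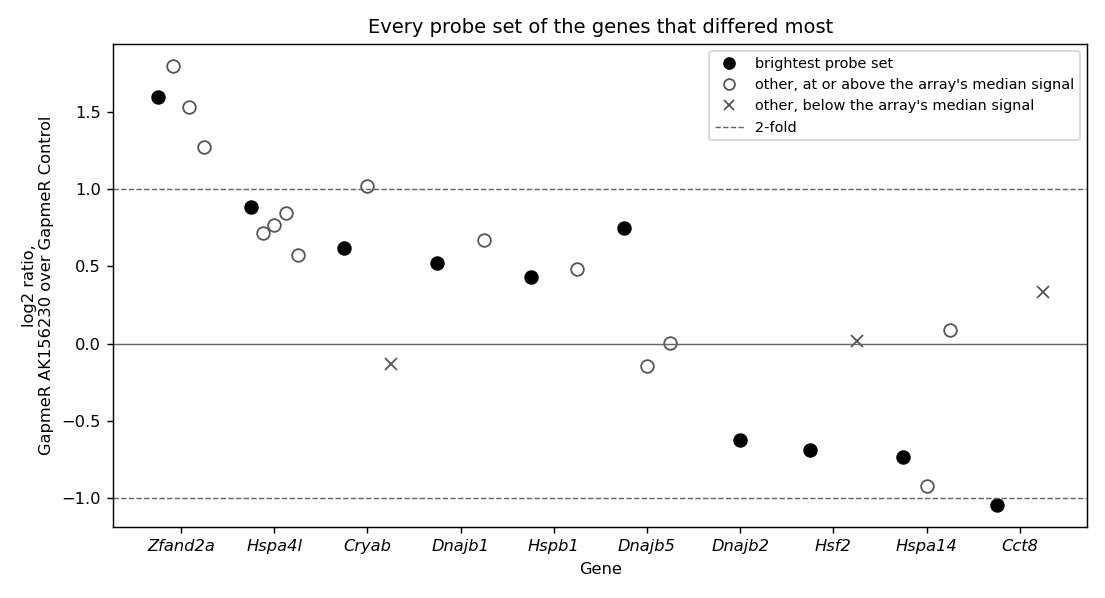
log2 ratio (GapmeR AK156230 to GapmeR Control) for every probe set of the 8 genes past 1.5-fold and of Dnajb1 and Hspb1, where the brightest probe set is filled, others at or above the median signal are open, dimmer ones are crosses and the dashed lines mark 2-fold. The 4 probe sets of Zfand2a lie between 1.27 and 1.80 and the 5 of Hspa4l between 0.58 and 0.88, while those of Dnajb5 and Hspa14 spread across 0.

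BAG proteins and HSP90 co-chaperones were close to level. Bag3, an inducible BAG protein that directs HSP70 clients to autophagy, had 481.44 with GapmeR AK156230 and 538.29 with GapmeR Control. Bag1 and Bag2 had log2 ratios of 0.14 and -0.02. All 4 measured co-chaperones of HSP90 were above 0, where 41.2% of all named genes were, and none was past 1.5-fold. Of 18 further HSP90 co-chaperones outside the list 13 were above 0, with 0 at least 1.5-fold higher and 2 at least 1.5-fold lower. Of those on the list, Fkbp4, an immunophilin of steroid receptor complexes, had a log2 ratio of 0.29 at its brightest probe set. Its further, dim probe sets had -0.22 and 0.05, and the mean of all was 0.04. Stip1 (HOP), which links HSP70 to HSP90, was at 0.18, Chordc1 at 0.05, and Ahsa1, which stimulates the ATPase of HSP90, at 0.04. The chaperonin of mitochondria was level too, with 2869.95 with GapmeR AK156230 and 2975.5 with GapmeR Control for Hspd1 (HSP60). Its lid Hspe1 (HSP10) had 2841.57 with GapmeR AK156230 and 2760.22 with GapmeR Control.

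Within the TRiC chaperonin, Cct8 was lower while the other subunits on the list had log2 ratios slightly above 0. Cct8, which encodes the theta subunit and lies on chromosome 16 from 87483325 to 87495869, had 707.85 with GapmeR AK156230 and 1457.09 with GapmeR Control, 2.06-fold lower, and was 653rd from the bottom among all named genes. The other subunits measured were Cct2, Cct3, Cct4, Cct5 and Tcp1, with log2 ratios of 0.08, 0.18, 0.19, 0.24 and 0.10. Of their 15 probe sets at or above the median signal, 14 were above 0, with the exception at -0.28 in Cct3. These probe sets come from only 5 genes, whose values all lay within 0.28 of 0, the spread between probe sets. Among all named genes 41.2% were above 0. Of the subunits outside the list, Cct6a and Cct7 had log2 ratios of 0.01 and 0.29, and Cct6b, which is specific to testis, was dim and at -0.41. Cct8 had only 1 usable probe set, since the second was near the bottom of the range (7.87 with GapmeR AK156230 and 6.23 with GapmeR Control). It was just past the threshold, and with both arrays scaled to the same median, quantile normalized or averaged over both probe sets it was within 2-fold, at log2 ratios of -0.94, -0.99 and -0.35.

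**Figure D3:**
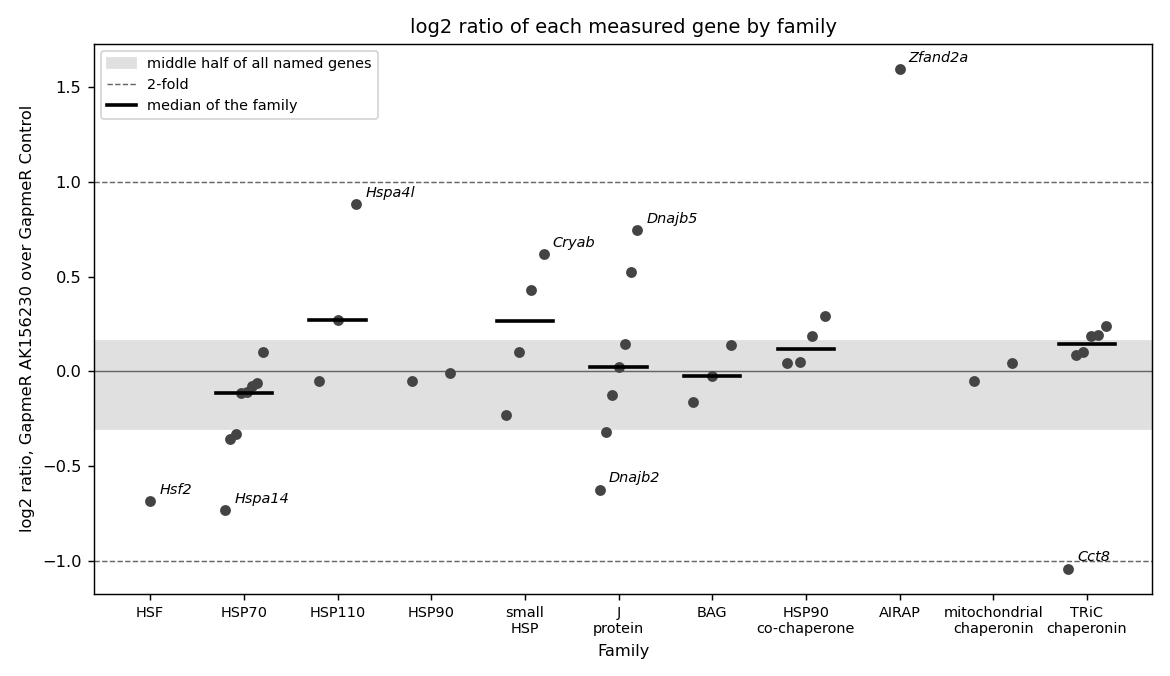
log2 ratio (GapmeR AK156230 to GapmeR Control) of the 41 measured genes by family, with a black bar at the median of families of 3 genes or more, grey shading between the lower and upper quartile of all named genes, and dashed lines at 2-fold. Named points are past 1.5-fold; Zfand2a at 1.60 and Cct8 at -1.04 are past 2-fold, and the HSP90 genes and the chaperonin of mitochondria lie near 0.

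The genes known to be induced by heat lay on both sides of 0. Counted as such were 18 genes of the list, Ahsa1, Bag3, Chordc1, Cryab, Dnaja1, Dnajb1, Dnajb4, Hsp90aa1, Hspa1a, Hspa1b, Hspa4l, Hspb1, Hspb8, Hspd1, Hspe1, Hsph1, Stip1 and Zfand2a. Of these, Zfand2a was higher by 2-fold or more, Hspa4l and Cryab by 1.5-fold or more, and 0 were lower by 1.5-fold. Of the other 23 genes 1 was at least 1.5-fold higher and 4 at least 1.5-fold lower, and of all named genes 5.48% were higher and 9.69% lower. The median log2 ratio of the heat-induced genes was 0.05, against -0.02 for the other 23. Like the other lists, the 18 genes were chosen with earlier results of these data known, so this split is a description only. The 5 genes with a 3-unit heat shock element had log2 ratios between -0.32 and 0.05, and the other 11 genes with a 2-unit core lay between -0.23 and 0.43, apart from Zfand2a at 1.60. The median of all 16 genes with a core was 0.04, against 0.03 for the 18 without. Among the genes without a core the range was from -1.04 to 0.88, with Hspa4l, Dnajb1 and Cct8 among them. A match is a description of the letters and does not show binding. Elements with other letters or spacing, or outside the windows, were not searched, so a gene without a match may still carry one. Windows of 7 measured genes, Cryab among them, were not used here.

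Of 99 further chaperone genes and HSF1 targets 92 were measured, of which 0 were at least 2-fold higher and 2 at least 2-fold lower, against 1.59% higher and 3.85% lower among all named genes, with a median log2 ratio of 0.06. Dnajc5, the cysteine string protein of secretory vesicles, was 2.87-fold lower, with 240.06 with GapmeR AK156230 and 688.9 with GapmeR Control. Its other 4 probe sets were lower by 2.98-, 2.60-, 2.58- and 2.00-fold. The second gene, Hspa12b, was dim (24.29 with GapmeR AK156230 and 48.99 with GapmeR Control), and Dnajc12 was just inside the threshold at 1.95-fold higher (332.4 with GapmeR AK156230 and 170.37 with GapmeR Control). Prefoldin passes actin and tubulin to TRiC. Its genes were counted together with Uri1, Pdrg1, Pdcl, Pdcl3 and Txndc9, which do not encode subunits of prefoldin itself. Of these 11 genes 10 were above 0, with log2 ratios from -0.30 (Uri1) to 0.43 (Pfdn4), where 41.2% of all named genes were above 0. Further HSP70 genes were above 0 in 0 of 2 cases and further J proteins in 16 of 29. Other HSF1 targets were split, with 4 of 8 above 0. Among them Serpinh1, the collagen chaperone HSP47, had 2400.13 with GapmeR AK156230 and 3971.37 with GapmeR Control, 1.65-fold lower.

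Long genes were often lower on these arrays, and most chaperone genes are short. Of named genes at or above the median signal, 2.19% of those of 10 to 20 kb and 25.4% of those over 160 kb were lower by 2-fold or more. The measured chaperone genes had a median length of 12.5 kb, against 22.5 kb for named genes at or above the median signal, and 0 were over 160 kb. Cct8 spans 12.5 kb, in the class with 2.19% lower. The genes over 40 kb were Hspa4, Dnajb6, Hspa4l and Hspa12a, with log2 ratios of 0.27, -0.32, 0.88 and -0.36. Hspa4l thus lay 0.88 above 0 in a length class, 40 to 80 kb, whose median was -0.09. The part of length in these values was not tested.

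**Figure D4:**
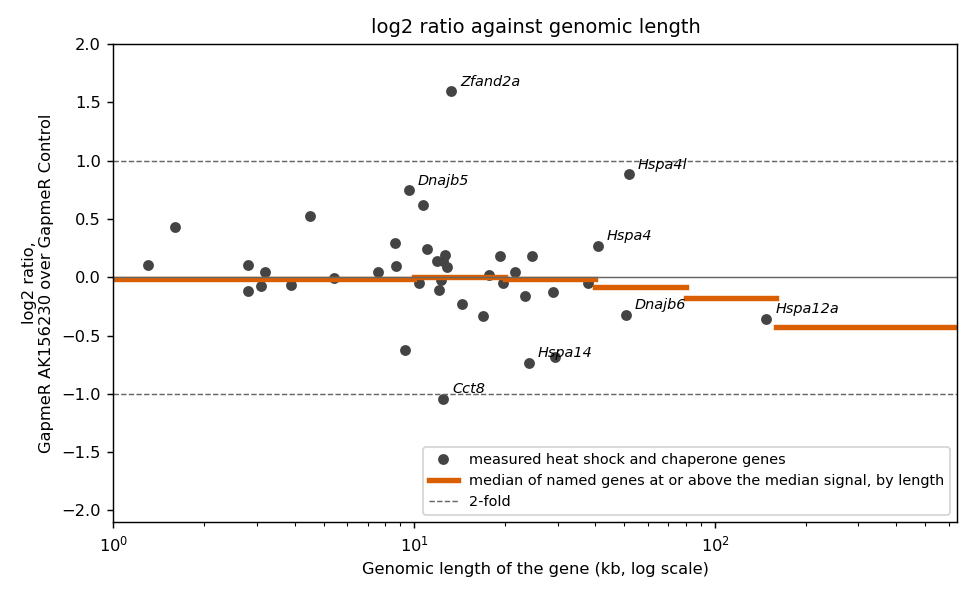
log2 ratio (GapmeR AK156230 to GapmeR Control) against genomic length on a log scale for the 41 measured genes, with orange bars at the median of named genes at or above the median signal in length classes bounded at 10, 20, 40, 80 and 160 kb (the first and last bar are drawn to the edge of the plot) and dashed lines at 2-fold. The class medians lie between -0.43 and 0.00, and Hspa4l at 51.6 kb and 0.88 lies above its class.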

How the data were processed

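RNA of MEFs with GapmeR AK156230 and with GapmeR Control was hybridized to 1 Affymetrix array each. The deposited intensity values are MAS5 probe set signals on a linear scale, which the authors scaled per array. The MAS5 version and target signal were not given in the sources used here. While the methods name a porcine array, the labels give mouse RNA, and the mouse platform annotation was therefore used. Of 45037 probe sets, 34945 had 1 gene symbol, 932 had several and 9160 were not listed; symbols were updated through the Entrez ID for 34741. The table held no detection calls, so genes below the median signal on the brighter array (dim) may be background. Log2 ratios (GapmeR AK156230 to GapmeR Control) were computed with no offset and counted at 2-fold, the threshold of the methods. The test named in the methods (SAM) needs several arrays. The genes and lists were chosen with earlier results of these data known. All members are named; both signals are given for those past 2-fold, Hsf2 and the inducible HSP70 and HSP90 genes, and for others chosen after their values were seen. Other chaperone genes were named if past 2-fold and at or above the median signal; further ones were chosen after their values were seen. Positions, lengths and promoters are RefSeq's (GRCm38.p6). Alternatives were scaling to the same median, quantile normalization, loess, an offset of 24.33, the mean of all probe sets, leaving out _x_at and _s_at probe sets, thresholds of 1.5- and 3-fold, and filters at the 25th and 50th percentile of signal. Counting was tested on simulated data. The number of arrays limits the precision. Python 3.11.15, numpy 2.4.6, pandas 2.3.3, statsmodels 0.14.6 and matplotlib 3.10.9 were used.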

Additional observations from a re-analysis of the deposited data

How the results depend on the processing

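No paired analysis was possible because each condition had 1 array. The number of genes lower by 2-fold or more, 1 as deposited, was 0 with arrays scaled to the same median, with quantile normalization, with the mean of all probe sets and at 3-fold, and 4 at 1.5-fold; the number higher, also 1, became 4 at 1.5-fold. Zfand2a was the gene past the threshold upward in each of these alternatives. The median log2 ratio over the members was between 0.04 and 0.15 under all 8 alternatives that apply to it. Of 246 values of single genes under 6 alternatives, 5 moved by more than the spread between probe sets. They were those of Cct8, Dnajb5, Dnajb6 and Hsf2. Only Zfand2a and Cct8 were past 2-fold as deposited, and neither changed sign. Sign changes of genes within 2-fold were not counted, and some occurred. Dnajb5 had a log2 ratio of 0.75 as deposited and of -0.14 once _x_at and _s_at probe sets were dropped. For Dnajb6 it was -0.32 as deposited and 0.07 when its probe sets were averaged. The median log2 ratio was above 0 throughout for TRiC (0.14 to 0.25) and the HSP90 co-chaperones (0.06 to 0.22), and below 0 throughout for HSP70 (-0.11 to -0.01), while those of the BAG (-0.02 to 0.08), HSP90 (-0.03 to 0.08) and J protein (-0.13 to 0.13) genes lay on both sides of 0. The median over all named genes also moved, from -0.07 as deposited to 0.03 with arrays scaled to the same median. The HSP70 median was -0.11 and -0.01 in the same settings, close to that of all named genes. Genes near or below the median signal, Hspa12a, Hsf2 and Hspb2 among them, are limited by signal over background.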
